A study of Mus musculus with 9 samples.

Results

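Expression of 7 genes of thyroid hormone handling was examined in the hypothalamic paraventricular nucleus (PVN). The genes were Dio2, Slco1c1, Thra, Thrb, Crym, Trhde and Rax, taken by symbol from a table of 27179 genes for their known roles, with earlier results of these data known. All 7 were in the table and had at least 1 count in every sample, and all 7 passed the filter on low counts. The samples were tissue punches from the PVN of wild type male C57BL/6 mice (C57BL/6J in the study's methods), 3 per group, in the groups Control, HFD and HFD+Mino. Mice began their diets at postnatal day 35 and stayed on them for 12 weeks. Control mice ate chow with 16% of calories from fat and drank plain water. HFD mice ate a diet with 60% of calories from fat. HFD+Mino mice ate the same 60% diet and drank minocycline, a tetracycline antibiotic that dampens microglial activation, at 40 mg/kg per day over the final 6 of those weeks.

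Neurons of the PVN that make thyrotropin-releasing hormone (TRH) set the level of circulating thyroid hormone through the pituitary, and thyroid hormone in turn lowers their output. The hormone enters the brain through transporters such as the product of Slco1c1, and type 2 deiodinase, the product of Dio2, converts the prohormone T4 to active T3 in astrocytes and in tanycytes, the glial cells that line the floor of the third ventricle. T3 acts in the nucleus through the receptors encoded by Thra and Thrb. Crym encodes a cytosolic protein that binds T3, Trhde an enzyme on the cell surface that cleaves TRH, and Rax a transcription factor that marks tanycytes.

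Some libraries stood apart. The library with the fewest counts was HFD replicate 1 (17728590) and the one with the most was Control replicate 1 (42326213). A list of 6 PVN markers (Avp, Oxt, Crh, Trh, Sim1 and Otp) summed to 27.8 CPM (counts per 1000000 of the scaled library size) in Control replicate 1, and to 932 to 37730 CPM in the other 8 samples. Otp was at 0 in Control replicate 1 and Avp, the vasopressin gene, at 0.149 CPM, and 5 of the 6 markers were lowest there. Crh made up most of the sum in that library, at 20.6 CPM, which lay within its range elsewhere (14.4 to 153 CPM). A list of 9 ependymal markers summed to 23.5 CPM in that library against 178 to 853 CPM elsewhere, and a list of 6 oligodendrocyte markers to 29220 CPM against 2221 to 6886 CPM. Control replicate 2 stood apart too. A list of 6 markers of other neighbouring regions, among them Hcrt and Pmch, summed to 3475 CPM there, against 61.3 to 508 CPM elsewhere. Below, each difference from Control that moved by over 1.5-fold without Control replicate 1 is given with and without it. Control replicate 2 was left out only in the fits that left out each sample in turn. HFD+Mino replicates 1 and 2 had far more Avp (28050 and 22180 CPM) than HFD+Mino replicate 3 (1218 CPM). The part of these tissue differences in the results was not tested.

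**Figure D1:**
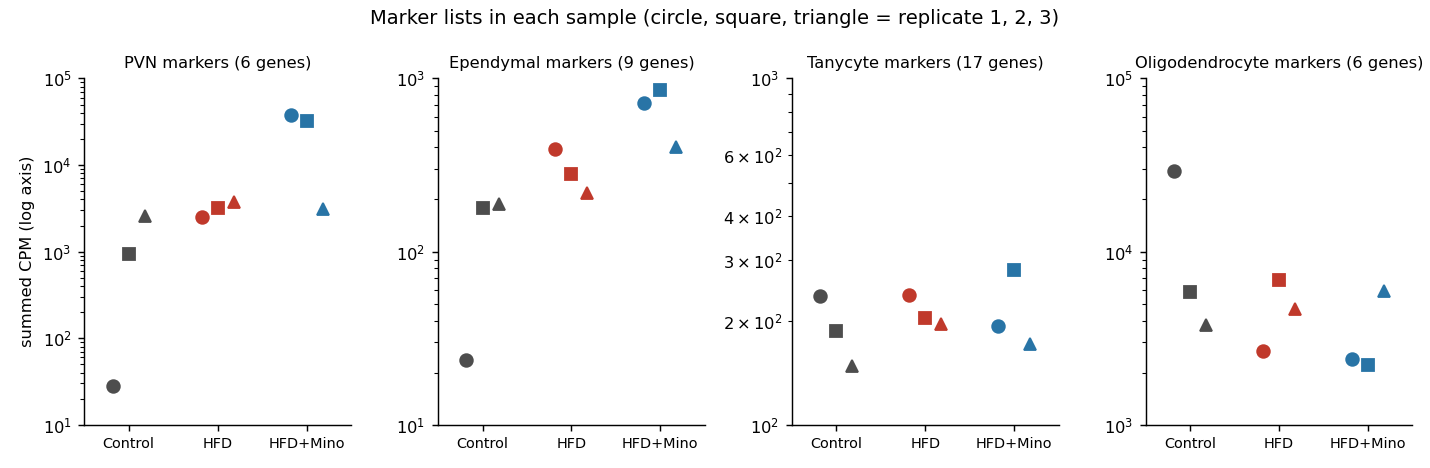
Summed level of 4 marker lists (y axes, CPM, log scale) in each sample of the 3 groups, with 1 point per sample. Control replicate 1 lies lowest for the PVN markers (27.8 CPM) and the ependymal markers (23.5 CPM) and highest for the oligodendrocyte markers (29220 CPM). The 17 tanycyte markers sum to between 148 and 279 CPM in all samples. That sum includes 4 of the 7 genes studied, and Rax, Gpr50 and Slc17a8 add at most 1.15, 5.27 and 1.44 CPM to it.

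The receptor gene Thrb was the member that differed between groups. It was higher in HFD than in both other groups, while Control and HFD+Mino overlapped. A gene was called when its false discovery rate (FDR, Benjamini-Hochberg over the 17344 genes tested with edgeR's quasi-likelihood test) was under 0.01 and its difference at least 1.5-fold. Between HFD and HFD+Mino, 1 of the 7 genes was called, Thrb, where 4.15% of all tested genes were called, and 1 of the 7 had an unadjusted p under 0.05, against 41.3% of all genes. A 3-way test of whether any group differed, which also asked that HFD be the highest or lowest group by 1.5-fold from the mean of the groups, called Thrb as well, 1 of 7 against 2.13% of all genes. Between HFD and Control 0 of the 7 were called, where 1.74% of all genes were. There, 2 of the 7 (Thrb and Trhde) had an unadjusted p under 0.05 in edgeR, against 20.5% of all genes, and DESeq2 called 1 (Thrb), where it called 6.91% of all genes. Between HFD+Mino and Control 0 of the 7 were called by edgeR, where 0% of all genes were called, and 0 by DESeq2, where 1.59% were, and 0 of the 7 had an unadjusted p under 0.05, against 21.3% of all genes. In these bulk samples, fewer cells of a type and less RNA per cell cannot be told apart.

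Thrb (Entrez gene 21834) encodes thyroid hormone receptor beta, the receptor through which T3 restrains Trh. The gene lies on the plus strand of GRCm38 at chr14:17659225-18040097. Its level was 12.7, 12.99 and 20.3 CPM in Control replicates 1 to 3. In HFD it was 43.4, 46.8 and 39.1 CPM, and in HFD+Mino 12.7, 20.7 and 14.8 CPM. All 3 HFD samples lay above every other sample, and the other groups covered almost the same range. The mean of Control was 15.3 ± 4.29 CPM, that of HFD 43.1 ± 3.89 CPM and that of HFD+Mino 16.1 ± 4.14 CPM (SD, n = 3 mice), from 371 to 1615 counts per sample. HFD exceeded Control 2.81-fold, a log2 fold change of 1.49 (SE 0.27) whose FDR of 0.0104 in edgeR fell just outside the threshold. HFD+Mino was 2.68-fold below HFD, a log2 fold change of -1.42 (SE 0.27) with an FDR of 0.00878, and was called. HFD+Mino and Control differed by 0.07 on the log2 scale (SE 0.27, FDR 0.902). In the 3-way test HFD lay 0.97 above the mean of the 3 groups' log2 levels, with an FDR of 0.00858.

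These FDR values lay close to the threshold, and the call moved with the setting while the order of the groups did not. Between HFD and Control, Thrb was called in 9 of 13 alternative settings other than those that left out single samples, among them DESeq2 (FDR 1.28e-05). Another was the edgeR fit with a replicate block shared by Control and HFD+Mino (FDR 0.00335). That block rests on a pairing seen in these same counts, so its call adds no separate support. The call between HFD+Mino and HFD was lost without Control replicate 2, any single HFD sample or HFD+Mino replicate 1 (FDR up to 0.0433), and the 3-way call without those samples or Control replicate 1 (FDR up to 0.0565). Without Control replicate 1, HFD exceeded Control by 1.37 (SE 0.31, FDR 0.0428).

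Other measures moved with the HFD group too. Rn45s, the ribosomal RNA precursor, took 0.350% to 0.430% of the counts in HFD samples, 0.0266% to 0.0438% in Control and 0.0450% to 0.113% in HFD+Mino. Long transcripts were also higher in HFD as a class. Thrb has 7403 nt of exon, longer than 79.5% of tested genes, and the 3125 genes in its length class (5150 to 7486 nt) had a median log2 fold change of 0.18 between HFD and Control and of -0.42 between HFD+Mino and HFD. With the trend on gene length removed from each sample, Thrb was 1.26 higher in HFD than in Control (FDR 0.0122) and -0.94 in HFD+Mino relative to HFD (FDR 0.0262), and was not called in either comparison. The log2 levels of Thrb and Rn45s correlated over the 9 samples (Pearson's r = 0.805, and 0.79 without Control replicate 1, as a description of libraries that share groups). An alternative fit left Rn45s out, which removes its counts but not what else differs with it. In that fit Thrb was called between HFD+Mino and HFD and not between HFD and Control, as with Rn45s kept. The part of the ribosomal RNA share in the result was otherwise not tested.

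The Thrb counts add up transcripts from separate starts. The RefSeq promoter windows used here cover 2 starts of Thrb on GRCm38.p6, 320.7 kb apart, and a gene-level count does not tell them apart. The span of the gene begins at 17659225, before both windows, so these 2 are not all of its starts. The 250 bases before each start are shown because they differ in composition, with 71.6% G and C at the upstream start and 44.0% at the downstream start. Capitals mark AGGTCA, the core sequence that many nuclear receptors bind, in the upstream window and TATAAA, the letters of a TATA box, in the downstream one. Both strands were searched, and the motifs were picked after the windows had been read. AGGTCA occurs in 14.02% of the 32851 RefSeq windows of this length and TATAAA in 12.37%.
Thrb upstream start, chr14:17660710-17660959, plus strand: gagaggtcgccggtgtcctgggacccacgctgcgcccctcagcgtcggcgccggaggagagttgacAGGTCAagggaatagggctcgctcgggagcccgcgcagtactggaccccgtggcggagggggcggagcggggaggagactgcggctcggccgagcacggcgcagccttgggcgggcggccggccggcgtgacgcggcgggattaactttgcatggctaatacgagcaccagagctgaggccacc
Thrb downstream start, chr14:17981394-17981643, plus strand: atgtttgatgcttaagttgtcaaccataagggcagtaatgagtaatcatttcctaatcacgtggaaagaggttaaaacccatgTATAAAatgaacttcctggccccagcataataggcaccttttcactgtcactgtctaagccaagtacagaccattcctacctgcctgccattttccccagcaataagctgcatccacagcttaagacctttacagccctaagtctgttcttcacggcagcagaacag
In the upstream window AGGTCA begins 184 bases before the start, and in the downstream window TATAAA begins 167 bases before it.

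Thra (Entrez gene 21833, GRCm38 chr11:98740776-98769006, plus strand) encodes the alpha receptor, the main thyroid hormone receptor of neurons, and was the most abundant of the 7 genes per length in each group. Its level was 92.8, 116 and 155 CPM in Control replicates 1 to 3. HFD samples had 66.5, 76.7 and 73.7 CPM, and HFD+Mino samples 68.0, 34.5 and 120 CPM. All HFD samples lay below all Control samples, and the HFD+Mino samples spread across both. Between HFD and Control 3 of the 7 genes had groups that did not overlap (Thrb higher, Thra and Slco1c1 lower), against 35.7% of all genes tested. Thra was not called in any comparison. Its log2 fold change was -0.75 (SE 0.38, FDR 0.290) for HFD over Control, 0.04 (SE 0.37, FDR 0.948) for HFD+Mino over HFD, and -0.71 (SE 0.38, FDR 0.294) for HFD+Mino over Control. Of the exons of Thra, 263 nt (5.70%) are shared with exons of Nr1d1 on the opposite strand, and the library kit does not mark strand. Nr1d1, which encodes the clock repressor REV-ERB alpha, ranged over 71.6 to 106 CPM in Control, 99.5 to 113 CPM in HFD samples and 36.6 to 104 CPM in those of HFD+Mino. Both genes were lowest in HFD+Mino replicate 2, and their log2 levels correlated over the 9 samples (Pearson's r = 0.66, and 0.68 without Control replicate 1, as a description of libraries that share groups). The part of shared reads in the Thra level was not tested. Thra also makes a splice form that does not bind T3, and the counts join both forms.

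The ratio of the receptor genes joins both differences, and since it was formed from genes that already separated HFD from Control it is given as a description, with no test. Per Thrb count there were 7.28, 8.96 and 7.65 Thra counts in Control replicates 1 to 3. HFD samples had 1.53, 1.64 and 1.89, and HFD+Mino samples had 5.36, 1.67 and 8.13. HFD+Mino replicate 2 lay within the HFD range and the other HFD+Mino samples near Control. The log2 ratio in HFD was -2.24 relative to Control (SD over 3 samples 0.15 in HFD and 0.16 in Control). For HFD+Mino over HFD the difference in log2 ratio was 1.31, and for HFD+Mino over Control -0.93, with an SD of 1.19 in HFD+Mino. Per kb of exon, Thra exceeded Thrb 11.7- to 14.4-fold in Control and 2.46- to 3.03-fold in HFD.

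**Figure D2:**
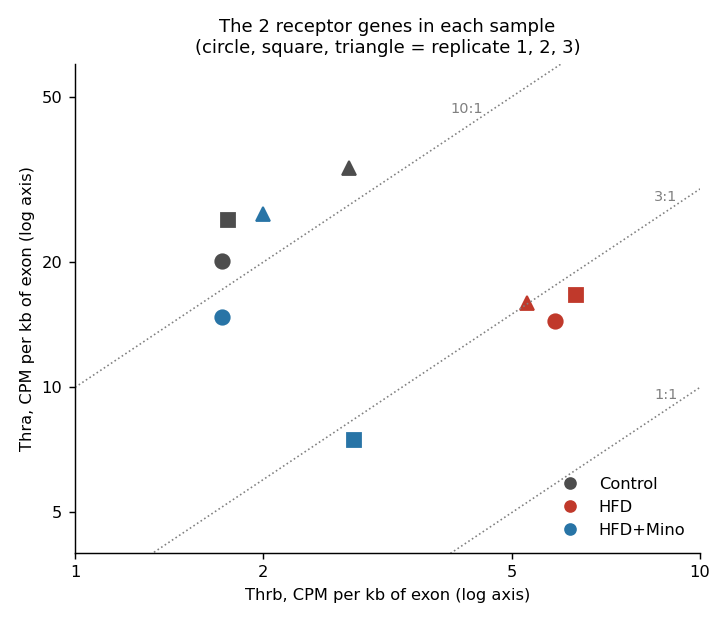
Level of Thra (y axis) against Thrb (x axis) in the 9 samples, both as CPM per kb of exon on log axes, with dotted lines at Thra to Thrb ratios of 1, 3 and 10. The 3 HFD samples lie near the line of 3 (ratios 2.46 to 3.03), the Control samples above the line of 10 (11.7 to 14.4), and HFD+Mino replicate 2 (2.67) lies apart from the other HFD+Mino samples (8.60 and 13).

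Slco1c1 (Entrez gene 58807, GRCm38 chr6:141524354-141570177, plus strand) encodes OATP1C1, a T4 transporter of brain capillaries, astrocytes and tanycytes. It was at 70.1, 50.8 and 43.7 CPM in Control replicates 1 to 3. HFD samples were at 32.7, 34.7 and 38.8 CPM and HFD+Mino samples at 37.9, 77.6 and 37.2 CPM. Every HFD sample lay below every Control sample, and HFD+Mino held 2 samples within the HFD range and the highest sample of all. The difference between HFD and Control was -0.63 on the log2 scale (SE 0.31, FDR 0.277), and -0.42 (SE 0.33) without Control replicate 1. HFD+Mino differed from HFD by 0.52 (SE 0.31, FDR 0.222), and by 0.09 (SE 0.24) without HFD+Mino replicate 2, so most of that difference came from 1 library. A list of 9 endothelial markers was also highest in HFD+Mino replicate 2, with a sum of 990 CPM, against 380 to 799 CPM in the other samples. Itm2a (479.6 CPM) and Ly6c1 (247 CPM) carried that sum, while the endothelial genes Pecam1 (9.40 CPM) and Cdh5 (0.780 CPM) were lowest of all samples in this library. Slco1a4, a further thyroid hormone transporter of brain capillaries, was highest there as well, at 86.1 CPM against 31.3 to 67.3 CPM. The part of the endothelial share in the Slco1c1 level was not tested.

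Dio2 and Crym were low and depended on single libraries. Dio2 (Entrez gene 13371, GRCm38 chr12:90724552-90739038, minus strand) was at 10.0, 1.38 and 0.972 CPM in Control replicates 1 to 3. It was at 2.41, 2.41 and 3.29 CPM in HFD and at 3.77, 0.149 and 1.91 CPM in HFD+Mino, where replicate 2 had 4 counts. Control replicate 1 was 8.50 times the mean of the other Control samples, and the groups overlapped in each comparison. The log2 fold change was -0.61 for HFD over Control (SE 0.96, FDR 0.759), -0.47 for HFD+Mino over HFD (SE 0.97, FDR 0.745) and -1.08 for HFD+Mino over Control (SE 0.97, FDR 0.526). Without Control replicate 1 the first and the third turned to 1.19 (SE 0.88, FDR 0.668) and 0.72 (SE 0.87, FDR 0.662). No direction can be read for Dio2 from these samples. Of its exons, 100 nt (1.72%) are shared with Gm26512 on the opposite strand.

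The 250 bases before the Dio2 start are shown as those of the member that varied most within Control. Capitals mark TGACGTCA, the cAMP response element, which begins 95 bases before the start, and TATAAA, 30 bases before it. TGACGTCA reads the same on both strands and occurs in 1.55% of the RefSeq windows, and it too was picked after the window had been read.
Dio2, GRCm38.p6 chr12:90739039-90739288, minus strand: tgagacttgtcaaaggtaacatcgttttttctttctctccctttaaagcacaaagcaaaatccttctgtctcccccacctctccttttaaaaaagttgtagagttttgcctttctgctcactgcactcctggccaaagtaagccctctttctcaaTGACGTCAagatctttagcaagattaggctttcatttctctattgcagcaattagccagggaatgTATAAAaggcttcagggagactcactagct

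Crym (Entrez gene 12971, GRCm38 chr7:120186380-120201989, minus strand) encodes mu-crystallin, which binds T3 in the cytosol. Its level was 7.90, 1.10 and 0.972 CPM in Control replicates 1 to 3. HFD samples were at 1.31, 1.51 and 0.996 CPM and HFD+Mino samples at 6.03, 3.42 and 1.94 CPM. All HFD+Mino samples lay above all HFD samples. Control replicate 2 lay within the HFD range. Control overlapped with HFD+Mino only through replicate 1, which was 7.62 times the mean of the others. Crym and Thrb were the 2 of 7 genes whose HFD and HFD+Mino samples did not overlap, against 46.7% of all genes tested. Crym was 2.98-fold higher in HFD+Mino than in HFD (log2 fold change 1.58, SE 0.77, FDR 0.145) and was not called. Without Control replicate 1, which adds to the estimate of the spread, the FDR was 0.0356 at the same fold change (SE 0.49). Between HFD and Control the log2 fold change was -1.39 (SE 0.77, FDR 0.333), and 0.29 (SE 0.56, FDR 0.909) without Control replicate 1. For HFD+Mino over Control it was 0.19 (SE 0.74, FDR 0.901), and 1.86 (SE 0.58, FDR 0.149) without that library.

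Trhde (Entrez gene 237553, GRCm38 chr10:114398820-114802302, minus strand) encodes the TRH-degrading ectoenzyme. It was at 6.31, 10.3 and 17.3 CPM in Control replicates 1 to 3. HFD samples were at 29.1, 15.9 and 21.7 CPM and HFD+Mino samples at 10.2, 24.0 and 10.3 CPM. HFD replicate 1 was the highest of all and Control replicate 1 the lowest, and the groups overlapped in each comparison, so that 0 of the 7 genes separated HFD+Mino from Control, against 19.1% of all genes. HFD was 1.96-fold above Control (log2 fold change 0.97, SE 0.44, FDR 0.240), and by 0.68 on the log2 scale without Control replicate 1 (SE 0.44, FDR 0.591). HFD+Mino differed from HFD by -0.58 (SE 0.44, FDR 0.340) and from Control by 0.39 (SE 0.44, FDR 0.614). Trhde has 8065 nt of exon, longer than 82.9% of tested genes, and 538 nt of it (6.67%) are shared with Gm15723 on the opposite strand. With the trend on gene length removed, the difference between HFD+Mino and HFD was -0.06. Its substrate's gene Trh was at 5.49, 324 and 314 CPM in Control replicates 1 to 3. It was at 455, 293 and 260 CPM in HFD and at 632, 852 and 499 CPM in HFD+Mino. All HFD+Mino samples lay above all others, by 0.98 on the log2 scale over HFD (SE 0.89, FDR 0.434) and 1.62 over Control (SE 0.90, FDR 0.316), and neither difference was called. Without Control replicate 1 the difference in Trh from Control was 1.05 (SE 0.32, FDR 0.147).

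Rax (Entrez gene 19434) was near the limit of detection. It had 7, 8 and 14 counts in Control, 2, 20 and 7 in HFD and 9, 31 and 6 in HFD+Mino, which is 0.1004 to 1.15 CPM. The groups overlapped throughout, and HFD+Mino replicate 2 alone was above 1 CPM. Its log2 fold changes were 0.11, 0.87 and 0.98 in the order used above, each with an SE of 0.95 or 0.96 and an FDR of at least 0.519, and the last was -0.20 without HFD+Mino replicate 2. An antisense gene, Raxos1, shares 1604 nt (27.4%) of the Rax exons, so the source of these reads is uncertain. A difference in Rax was not detectable at this depth.

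**Figure D3:**
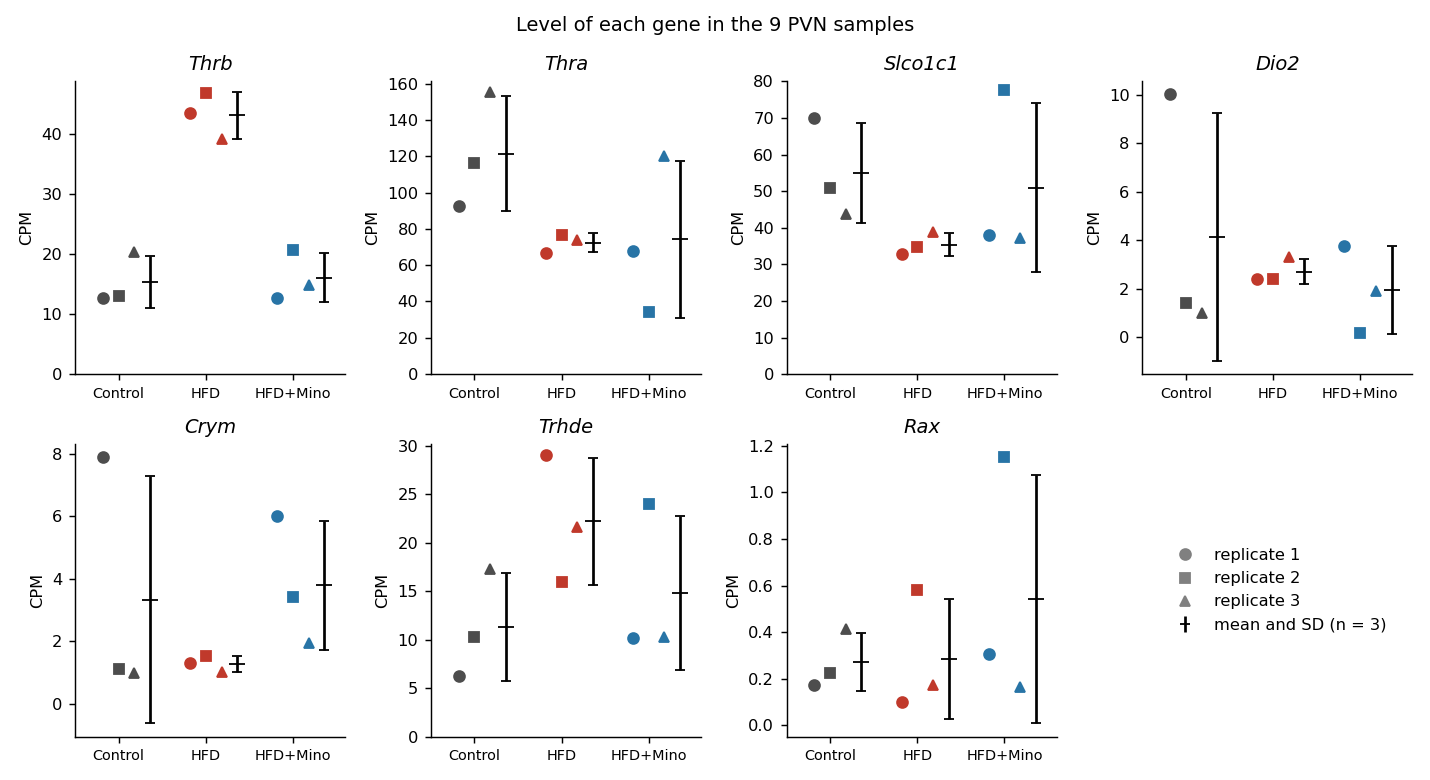
Level of the 7 genes (y axes, CPM, linear) in the 9 samples, with 1 point per sample, the marker shape giving the replicate number, and the group mean with its SD (n = 3) beside the points. The 3 HFD samples (39.1 to 46.8 CPM) stand above all others for Thrb, whereas Dio2 and Crym in Control are set by replicate 1 (10.0 and 7.90 CPM).

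Per kb of exon, which allows levels to be compared between genes, the order in Control was Thra (26.3 CPM per kb), Slco1c1 (10.6), Thrb (2.07), Trhde (1.40), Crym (0.980), Dio2 (0.709) and Rax (0.0463). In Control the ranges of Thrb, Trhde, Crym and Dio2 overlapped with their neighbours in this order, while Thra, Slco1c1 and Rax stood clear. In HFD, Thrb was at 5.82 CPM per kb and its range met that of Slco1c1 (6.83). Trhde (2.76) stood clear there, and Dio2 (0.465) and Crym (0.374) overlapped. In HFD+Mino the order matched that of Control, with Thra at 16.1 and Thrb at 2.17 CPM per kb, and the ranges of Thra and Slco1c1 overlapped. HFD+Mino replicate 2 was the highest or lowest of all samples for 4 of the 7 genes, being highest for Slco1c1 and Rax and lowest for Dio2 and Thra.

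**Figure D4:**
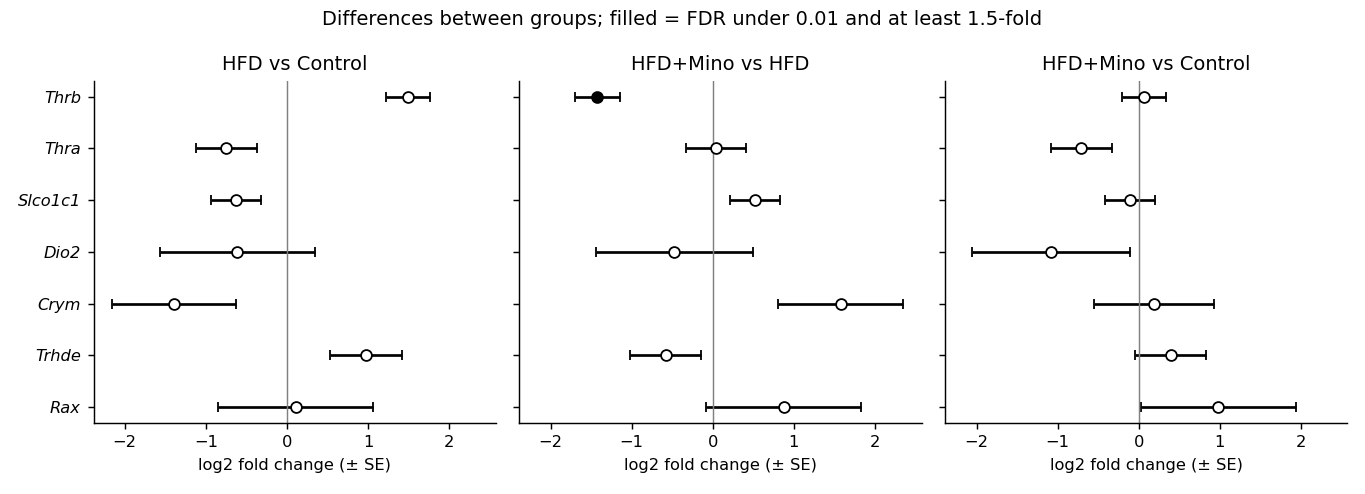
Log2 fold change with its SE for each of the 7 genes in the 3 comparisons (x axes, log2), with filled points for calls. The filled point is Thrb between HFD+Mino and HFD (-1.42), and the open point of Thrb between HFD and Control lies at 1.49. The comparisons share samples, so their points are not independent.

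The median log2 fold change of the 7 genes was -0.61 for HFD over Control, 0.04 for HFD+Mino over HFD and 0.07 for HFD+Mino over Control, where the medians over all tested genes were 0.00, 0.01 and -0.02. Values lay on both sides of 0 in every comparison, with 3 above and 4 below 0 between HFD and Control. The first median was the value of Dio2, and without Control replicate 1 it turned to 0.29, with 4 genes above and 3 below 0, so it gives no direction for the 7 genes.

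The other genes of the pathway were followed in 5 lists of 42 genes, of which 38 were tested. Between HFD and Control 1 of the 38 was called, Hdac3, which was lower, where 1.74% of all genes were called. In HFD+Mino relative to HFD 2 were called, Hdac3 higher and Tbl1x lower, against 4.15% of all genes. HFD+Mino and Control differed in 0 of the 38 by edgeR and in 0 by DESeq2, with 4 at an unadjusted p under 0.05 in edgeR, against 21.3% of all genes. All called genes were receptor partners and coregulators. A replicate block shared by Control and HFD+Mino rests on a pairing seen in these counts alone. With it, the calls numbered 5 between HFD and Control and 9 between HFD+Mino and HFD, where 6.22% and 25.6% of all genes were called. HFD+Mino and Control then differed in 0 of the 38 genes and 0 of the 7, against 3.18% of all genes.

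Unliganded thyroid hormone receptors hold a corepressor complex in which NCoR1 binds the histone deacetylase HDAC3, with TBL1X, TBL1XR1 and GPS2, and ligand exchanges it for the coactivators NCOA1 to NCOA3 and MED1. Hdac3 was at 239, 248 and 225 CPM in Control replicates 1 to 3. It was at 116, 113 and 111 CPM in HFD and at 268, 242 and 244 CPM in HFD+Mino. All HFD samples lay below all others, with a log2 fold change of -1.07 against Control (SE 0.18, FDR 0.00646), and HFD+Mino exceeded HFD by 1.15 (SE 0.18, FDR 0.00422). The fall in HFD lost its call without any single Control or HFD sample (FDR up to 0.0560). The rise in HFD+Mino lost its call without Control replicate 2, any single HFD sample or HFD+Mino replicate 1 (FDR up to 0.0378). Between HFD and Control, 0.335% to 0.408% of all genes were called without an HFD sample and 0.509% to 1.7% without a Control sample. Between HFD+Mino and HFD, 0.162% to 0.828% were called in the fits that lost the call.

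Tbl1x was at 27.2, 34.5 and 40.2 CPM in Control, at 62.4, 61.0 and 66.0 CPM in HFD and at 13.8, 22.1 and 28.1 CPM in HFD+Mino. HFD lay above both other groups. HFD+Mino was below HFD by a log2 fold change of -1.57 (SE 0.28, FDR 0.00686), and the difference between HFD and Control was 0.89 (SE 0.27, FDR 0.0851). The call was lost with the trend on gene length removed (-1.12, FDR 0.0118), where 2.7% of all genes were called. It was also lost without HFD+Mino replicates 1 or 2, Control replicate 2 or any single HFD sample (FDR up to 0.0409). Without these samples 0.162% to 1.89% of all genes were called in this comparison, against 4.15% with all samples.

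Of the 13 genes of this list, 9 had HFD and Control samples that did not overlap, against 35.7% of all genes. Ncoa2, Ncoa3, Med1, Tbl1x and Tbl1xr1 were the 5 above Control, and Hdac3, Ncor1, Gps2 and Ncoa1 the 4 below. The 5 above have 7052 to 15642 nt of exon and the 4 below 1604 to 12811 nt. The class of longest tested genes (7487 nt and over) had a median log2 fold change of 0.39 between HFD and Control. In HFD+Mino relative to HFD its median was -0.57. The part of gene length in this split was not tested. In the comparison of HFD+Mino with HFD 8 of 13 did not overlap, against 46.7% of all genes, with Hdac3, Ncor1 and Gps2 above and Med1, Ncoa2, Ncoa3, Tbl1x and Rxra below. Ncor1 was at 41.1 to 62.4 CPM in HFD, 102 to 104 CPM in Control and 92.0 to 104 CPM in HFD+Mino (2.00-fold lower in HFD than in Control, FDR 0.0172). Ncoa2 was at 44.8 to 55.7 CPM in HFD, 21.1 to 34.9 CPM in Control and 20.6 to 24.8 CPM in HFD+Mino (log2 fold change of HFD over Control 0.98, SE 0.25, FDR 0.0425). Neither passed the FDR threshold. Rxrg was the 1 of the 13 whose HFD+Mino and Control samples did not overlap, at 55.9 to 70.6 CPM against 26.2 to 55.2 CPM, where 19.1% of all genes did not.

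**Figure D5:**
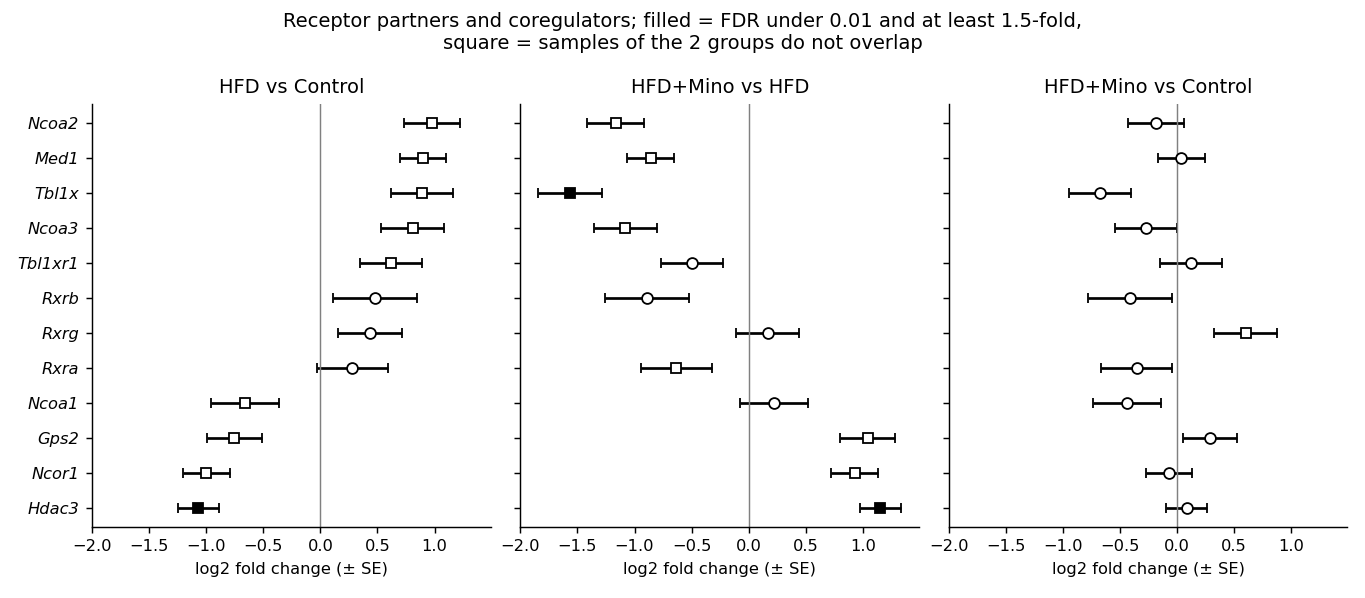
Log2 fold change with its SE of 12 of the 13 receptor partners and coregulators in the 3 comparisons (x axes, log2), with filled symbols for calls and squares where the samples of the groups do not overlap. Hdac3 is filled at -1.07 between HFD and Control and at 1.15 between HFD+Mino and HFD, and Tbl1x is filled at -1.57 in the latter.

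In the remaining lists no gene was called. Of the 9 genes of the TRH and TSH axis, Pam, whose enzyme amidates TRH, had the largest difference between HFD and Control (77.1 to 101 against 35.5 to 50.3 CPM, log2 fold change 1.06, SE 0.26, FDR 0.0344). Trhr, a TRH receptor, was at 13.99 to 23.9 CPM in HFD and 2.02 to 14.2 CPM in HFD+Mino (-1.39, SE 0.63, FDR 0.120). Of the deiodinases and carriers, Dio1, Dio3 and Serpina7 were at or below 0.273 CPM in all samples and were not tested. Ttr, the gene of the carrier transthyretin, was at 0.125 to 2.10 CPM. Of the 8 transporters 7 were tested. Slc7a8, a transporter of amino acids and T3, was at 32.0 to 72.2 CPM in HFD, 19.1 to 45.6 in Control and 15.3 to 43.1 in HFD+Mino (-1.12 between HFD+Mino and HFD, SE 0.46, FDR 0.0881).

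Of 8 genes known to respond to thyroid hormone, 0 were called in any of the 3 comparisons by edgeR's quasi-likelihood test, with 2, 3 and 1 at an unadjusted p under 0.05 in the order used above, where the shares of all genes were 20.5%, 41.3% and 21.3%. DESeq2 called Sema7a between HFD and Control, where it called 6.91% of all genes, and Klf9 between HFD+Mino and HFD, where it called 23%. Klf9, a transcription factor gene induced by T3, was at 20.6 to 37.8 CPM in HFD, 55.5 to 83.2 CPM in Control and 41.7 to 96.5 CPM in HFD+Mino. Its HFD samples lay below all others (-1.08 against Control, SE 0.34, FDR 0.0921, and 1.08 in HFD+Mino over HFD, SE 0.34, FDR 0.0368). Sema7a was at 0.754 to 1.39 CPM in HFD and 1.89 to 10.4 CPM in Control (-2.30, SE 0.66, FDR 0.0711). The highest of these was Control replicate 1, and without it the difference in Sema7a was -1.26 (SE 0.58, FDR 0.372). Mbp, a myelin gene, was at 18010 CPM in Control replicate 1 and at 1183 to 4361 CPM elsewhere.

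Tanycytes were checked with 17 markers, 4 of which (Rax, Dio2, Slco1c1 and Crym) are among the 7 genes. Levels within this list ranged widely. Rax was at most 1.15 CPM, Slc17a8 at 0 to 1.44 CPM and Gpr50 at 0 to 5.27 CPM. Slc17a8 and Gpr50 were picked for mention after their values were seen. Fgf10 (2.563 to 11.14 CPM) and Vim (14.01 to 40.27 CPM) from the same list reached higher levels. Whether tanycytes were few in these punches was not tested. Of the 13 other markers 1 was called between HFD and Control, Nes, and 2 between HFD+Mino and HFD, Nes and Cd59a, where 1.74% and 4.15% of all genes were called. Nes, the gene of the filament protein nestin, which endothelial and progenitor cells also express, was at 8.73, 10.3 and 8.04 CPM in HFD. It was at 2.06, 1.75 and 2.62 CPM in Control and at 3.15, 2.34 and 1.48 CPM in HFD+Mino. HFD stood above both other groups, with a log2 fold change of 2.07 over Control (SE 0.37, FDR 0.00907) and of -1.96 in HFD+Mino relative to HFD (SE 0.37, FDR 0.00846). Cd59a, which encodes an inhibitor of complement, was at 54.2, 93.5 and 33.9 CPM in HFD+Mino and at 16.3, 14.5 and 19.3 CPM in HFD (1.86, SE 0.37, FDR 0.00954). With the trend on gene length removed none of these calls held (FDR 0.0153 and 0.0246 for Nes, 0.0310 for Cd59a), and each was lost without any single HFD sample or Control replicate 2, that of Nes over Control also without Control replicate 1 (FDR 0.0297) or replicate 3 (FDR 0.0152), and some without other samples. With 1 HFD sample left out, 0.335% to 0.408% of all genes were called between HFD and Control and 0.162% to 0.328% between HFD+Mino and HFD. Col25a1, at 53.7 to 95.9 CPM in HFD against 16.7 to 26.8 in Control and 15.7 to 31.5 in HFD+Mino, missed the threshold (FDR 0.0131 and 0.0102). The fold changes of the 17 markers lay on both sides of 0, and their median log2 fold change was -0.06 for HFD over Control, -0.27 for HFD+Mino over HFD and 0.08 for HFD+Mino over Control. The first was 0.20 without Control replicate 1.

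The genes whose log2 CPM followed each member most closely over the 9 samples were found by Pearson's r, as a description, since the points share libraries and groups. For Thrb they were Virma (r = 0.98) and Cacul1 (r = 0.98), and for Thra they were Calcoco1 and Nploc4 (r = 0.98 each). For Slco1c1 they were Aspn (0.97) and Zfp979 (0.96), for Dio2 Cdkl3 and Sowahb (0.97 each), for Crym Cd74 (0.97) and Tnfaip2 (0.96), for Trhde Fndc3a (0.97) and Fndc3b (0.96), and for Rax 4833420G17Rik (0.90) and Mettl6 (0.87). Without Control replicate 1, Cdkl3, Nploc4, Fndc3a and 4833420G17Rik stayed among the 2 closest to their members, and neither gene named for Thrb, Slco1c1 or Crym did. No member was among the closest genes of a further member.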

How the data were processed

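PVN punches of 9 mice were sequenced by the authors from libraries made with a low-input cDNA amplification kit and a transposase kit. Reads were aligned to mm10 with HISAT2 and assigned to genes with featureCounts, and the authors deposited raw counts per gene by Entrez identifier. Software versions, strand setting and treatment of multi-mapping reads are not given in the sources used here. The table's 9 columns, all used, hold whole numbers.

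Samples were grouped by the labels and analysed with edgeR 4.0.16 in R 4.3.3 (filterByExpr, TMM, a quasi-likelihood model with group means over all 9 samples). SE is the absolute log2 fold change divided by the square root of F. Log2 CPM used a prior count of 2. Exon lengths came from GENCODE M21 (GRCm38) and promoter windows from RefSeq, which matched 4 of the 7 members (Thra, Crym and Rax had no entry, and the windows of Slco1c1 and Trhde held none of the motifs). The code was tested on simulated counts. Mice are separate animals, depth ran from 17728590 to 42326213 counts, and precision was taken from the spread between mice, as reads carry no molecular identifiers.

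The members, the 17 gene lists and the tests were chosen with earlier results of these data known. The text names the 7 members, called list genes, up to 4 genes per list with the largest 3-way F, and the 2 genes most like each member. Gpr50, Slc17a8, Dio1, Dio3, Serpina7, Slco1a4 and the PVN markers fall partly outside this rule and were chosen as context after their values were seen. Alternatives were DESeq2 1.42.0, a likelihood ratio test, RLE factors, no filter, a mean count of at least 50, ribosomal and mitochondrial genes left out, replicate blocks, 6-sample fits, other thresholds, trends on length or GC content removed (lowess span 0.3), and each sample left out. Same-numbered Control and HFD+Mino samples deviated together (correlations 0.135, 0.163 and 0.292), a pairing seen in the counts alone, while those of HFD did not. Replicate numbers are those of the sample titles, and in HFD alone the column names carry other numbers. By column name HFD replicate 1 shares its number with replicate 3 of the other groups (correlations 0.0385 with Control and 0.0171 with HFD+Mino). Values of some genes of the lists are counted in the list totals but not reported here.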

Additional observations from a re-analysis of the deposited data

How the results depend on the processing

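Thrb kept its direction between HFD and Control and between HFD+Mino and HFD under every alternative run, while its calls moved. The number of the 7 members called between HFD and Control was 1 (Thrb) in place of 0 with DESeq2, the likelihood ratio test, RLE factors, no filter, a mean count of at least 50, only the 6 samples compared, an FDR under 0.05, and the GC trend removed. In these settings 1.8% to 6.91% of all genes were called, against 1.74% in the fit reported above. With a sample left out the number was 0 or 1, where 0.335% to 3.08% of all genes were called. For HFD+Mino and HFD it was 0 in place of 1 with the length trend removed, and in the 3-way test likewise. There 2.7% and 2.15% of all genes were called. Both numbers were 0 or 1 with a sample left out, where the shares ran from 0.162% to 21.4% and from 0.0168% to 13.4%. Between HFD+Mino and Control the number stayed 0 throughout, also without HFD+Mino replicate 3, where 6.28% of all genes were called.

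The numbers pair Control and HFD+Mino in the counts alone. The replicate block in all 9 samples used the title numbers, which in HFD differ from those of the column names. With it 0 members were called in the 3-way test (Thrb, FDR 0.0104), against 2.81% of all genes. Between HFD and Control it gave 0 called pathway genes, against 1.64% of all genes. With the replicate block in Control and HFD+Mino only, 1 member (Thrb) and 5 pathway genes were called between HFD and Control, against 6.22% of all genes. Between HFD+Mino and HFD 9 pathway genes were called, against 25.6% of all genes. Between HFD+Mino and Control, the pair the block concerns, 0 members and 0 pathway genes were called with either block, while the share of all genes called was 0% with the first and 3.18% with the second.

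Pathway genes called between HFD and Control, 1 of 38 as reported, were 6 with DESeq2 (6.91% of all genes), 4 with the likelihood ratio test (5.57%) and 4 with only the 6 samples (3.67%). They were 5 at an FDR under 0.05 (5.77%), 2 with the length trend removed (2.39%), 2 with the GC trend removed (2.91%), and 0 to 1 with a sample left out (0.335% to 3.08%). For HFD+Mino and HFD, where 2 are reported, they were 8 with DESeq2 (23%), 7 with the likelihood ratio test (19.1%) and 4 at a mean count of at least 50 (6.76%). They were 0 with only the 6 samples (2.43%), 8 at an FDR under 0.05 (27.4%), 5 with the GC trend removed (8.94%), and 0 to 5 with a sample left out (0.162% to 21.4%).

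Differences that passed no test changed sign in places, and the cause was not tested. With the replicate block in all 9 samples Dio2 was at 0.22 and Rax at -0.33 between HFD and Control, and Thra at -0.0933 between HFD+Mino and HFD. With the block in Control and HFD+Mino only, Dio2 was at 0.0035 and Thra at -0.10 in these comparisons. With the length trend removed Rax was at -0.0272 between HFD and Control and Slco1c1 at 0.15 between HFD+Mino and Control. With a sample left out, the log2 fold change between HFD and Control ran from -1.08 to 1.19 for Dio2, -1.83 to 0.29 for Crym and -0.92 to 0.53 for Rax. Between HFD+Mino and HFD it ran from -1.36 to 0.0675 for Dio2, -0.50 to 0.38 for Thra and -0.31 to 1.90 for Rax. Between HFD+Mino and Control it ran from -1.98 to 0.72 for Dio2, -0.55 to 0.10 for Slco1c1, -0.16 to 0.32 for Thrb, -0.32 to 1.86 for Crym, -0.14 to 0.84 for Trhde and -0.20 to 1.42 for Rax. Rax was not tested at a mean count of at least 50. With 3 mice per group and 2 to 31 counts, differences in Rax are limited by depth, and those in Dio2 and Crym by the spread between libraries.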
